A study of Mus musculus with 338 samples.

Results

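Genes of the extracellular matrix and of the cells that make it were followed in RNA of mouse pancreatic islets. The set was chosen by name, with earlier results of these data known. Counts of its members against all genes therefore describe the set and are no independent support. Its 39 symbols are those of collagens, elastic fibre proteins, matrix glycoproteins and proteoglycans, and crosslinking enzymes. They also include proteases with their inhibitors, and surface or cytoskeleton proteins of stellate cells. All 39 stood among the 21382 genes of the deposited count table. The mice came from the inbred strains 129S2/SvPas, A/J, AKR/J, BALB/cJ, C57Bl/6J and DBA/2J, 6 in all, and ate either regular chow (RC) or food high in fat and sugar (HFHS) until their islets were taken on day 2, 10, 30 or 90. This gave 48 groups of 4 to 11 mice and 338 libraries, 172 on HFHS and 166 on RC, each from 1 mouse. The labels give no age, sex or genetic change. The islets of each mouse were lysed whole, without cell sorting, and the kit (TruSeq v2) keeps no strand.

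Pancreatic stellate cells are fibroblast-like cells that lie around acini, ducts and islets. At rest they keep up a thin matrix, and when activated they express smooth muscle actin and secrete fibrillar collagens. Islets themselves are wrapped in a basement membrane that is made largely by the cells of their capillaries. In bulk islet RNA, fewer cells of a type and less RNA per cell cannot be told apart.

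The members include gene pairs and single genes whose upstream sequence can be set side by side. RefSeq promoter windows (build GRCm38.p6) were matched for 24 of the 39 genes, 4 of them with more than 1 window, which gave 28 windows. Windows on 1 chromosome were left out for the members, but not for the shares over all windows given below. The 250 bases before the annotated start are shown for 4 genes that stand for the patterns described further on: the fibrillar collagen genes Col1a2 and Col3a1, the capillary collagen gene Col15a1, and the contractile gene Acta2. Sequences run 5′ to 3′ on the gene's strand, and capitals mark a CCAAT box or a TATAAA motif where one was found.
Col1a2 (chr6:4505368-4505617, plus strand): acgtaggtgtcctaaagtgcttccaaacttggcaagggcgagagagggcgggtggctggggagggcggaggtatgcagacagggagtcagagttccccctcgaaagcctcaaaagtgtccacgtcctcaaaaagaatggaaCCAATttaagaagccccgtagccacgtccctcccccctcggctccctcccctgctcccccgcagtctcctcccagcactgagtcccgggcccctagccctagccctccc
Col3a1 (chr1:45311288-45311537, plus strand): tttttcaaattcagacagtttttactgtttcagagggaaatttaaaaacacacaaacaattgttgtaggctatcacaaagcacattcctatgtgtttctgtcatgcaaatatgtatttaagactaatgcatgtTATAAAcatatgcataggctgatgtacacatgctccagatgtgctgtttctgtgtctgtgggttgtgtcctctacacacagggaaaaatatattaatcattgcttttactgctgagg
Col15a1 (chr4:47207762-47208011, plus strand): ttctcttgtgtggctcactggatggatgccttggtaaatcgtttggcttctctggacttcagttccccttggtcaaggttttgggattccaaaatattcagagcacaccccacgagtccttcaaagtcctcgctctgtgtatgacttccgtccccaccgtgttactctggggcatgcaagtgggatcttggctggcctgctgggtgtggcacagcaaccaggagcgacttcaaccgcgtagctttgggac
Acta2 (chr19:34255374-34255623, minus strand): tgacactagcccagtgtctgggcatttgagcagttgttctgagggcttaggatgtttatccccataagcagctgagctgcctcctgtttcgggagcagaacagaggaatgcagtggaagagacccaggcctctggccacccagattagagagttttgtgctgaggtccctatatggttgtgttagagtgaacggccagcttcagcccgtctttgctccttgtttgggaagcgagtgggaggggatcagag
In these windows Col1a2 holds a CCAAT box and Col3a1 a TATAAA motif, and Col15a1 and Acta2 hold neither. Both strands were searched. CCAAT was found in 8 of the 28 windows (28.6 percent) and in 33.8 percent of 32851 promoter windows of the same length. TATAAA was found in 4 (14.3 percent, against 12.4 percent of all), and GGGCGG, the core letters of the GC box, in 15 (53.6 percent, against 32.7 percent). The CArG box, the serum response factor motif known from smooth muscle genes, was searched as CCWWWWWWGG, with W for A or T and no mismatch. In this strict form it was in 0 of the 28 windows and in 1.5 percent of all. Near matches were not counted, such as ccctatatgg and ccttgtttgg in the Acta2 window. These are letter matches in a short window and no record of binding. Col4a1 and Col4a2, which encode the paired chains of type IV collagen and lie head to head, have annotated starts 21 bases apart.

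Libraries held 9526926 to 50751894 reads assigned to genes (median 25989180). In 34 libraries, 17 on each diet, read counts leaned on gene GC content by more than 0.5 log2 units per 10 GC points and 32 of them were low for GC-rich genes. In 9 libraries, all among these 34, 68 genes that tell the strains apart were nearest to another strain than the labelled one. All tests below therefore rest on the 304 libraries within the bound, with a GC curve per library taken out. They leave no BALB/cJ library on HFHS at day 2, so day 2 diet effects are means over 5 strains, and only 2 DBA/2J libraries on RC at day 90. Levels are CPM, read counts scaled to the library's assigned reads. Fold changes are on the log2 scale with their standard error, from edgeR's quasi-likelihood test with Benjamini-Hochberg adjustment over 16663 genes, and a gene was called at an adjusted p under 0.05. Nothing says whether mice of a group shared a cage, a preparation day or a sequencing run, so p-values measure the spread between these libraries.

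Per kilobase of transcript, Sparc stood highest with a mean of 124.9 CPM per kb. Sparc is a collagen-binding glycoprotein that is also made by endothelium. It was followed by Col4a1 (49.0 CPM per kb, basement membrane collagen), Dcn (39.3, decorin, a small proteoglycan on collagen fibrils), Col3a1 (37.5, type III fibrillar collagen) and Timp3 (30.4, a matrix-bound protease inhibitor). Pdgfra (0.848, the growth factor receptor of fibroblasts) and Lox (0.412, lysyl oxidase, which crosslinks collagen and elastin) stood lowest. The members differed widely in how far they ranged over the groups. The highest group median was 25.9 times the lowest for Mfap5, 25.8 times for Col1a1, 22.5 times for Mfap4 and 18.2 times for Eln, but 3.07 times for Col4a1 and 3.06 times for Timp3. Mfap5 and Mfap4 encode microfibril-associated proteins and Eln encodes elastin, so 3 of these 4 widely ranging genes belong to the elastic fibre. The lowest group medians of Mfap5 and Mfap4 were 0.162 and 0.943 CPM, so low counts enter their ratios. The other elastic fibre genes ranged 15.5 (Fbln1), 12.3 (Fbln2) and 6.73 times (Fbn1). For Col1a1 (8.79 CPM) and Col4a1 the lowest group median was that of DBA/2J on RC at day 90. Its 2 libraries within the bound had slopes on gene GC content of -0.307 and -0.499, low for GC-rich genes. CPM levels hold no GC term, and the part of GC content in these ratios was not tested.

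**Figure D1:**
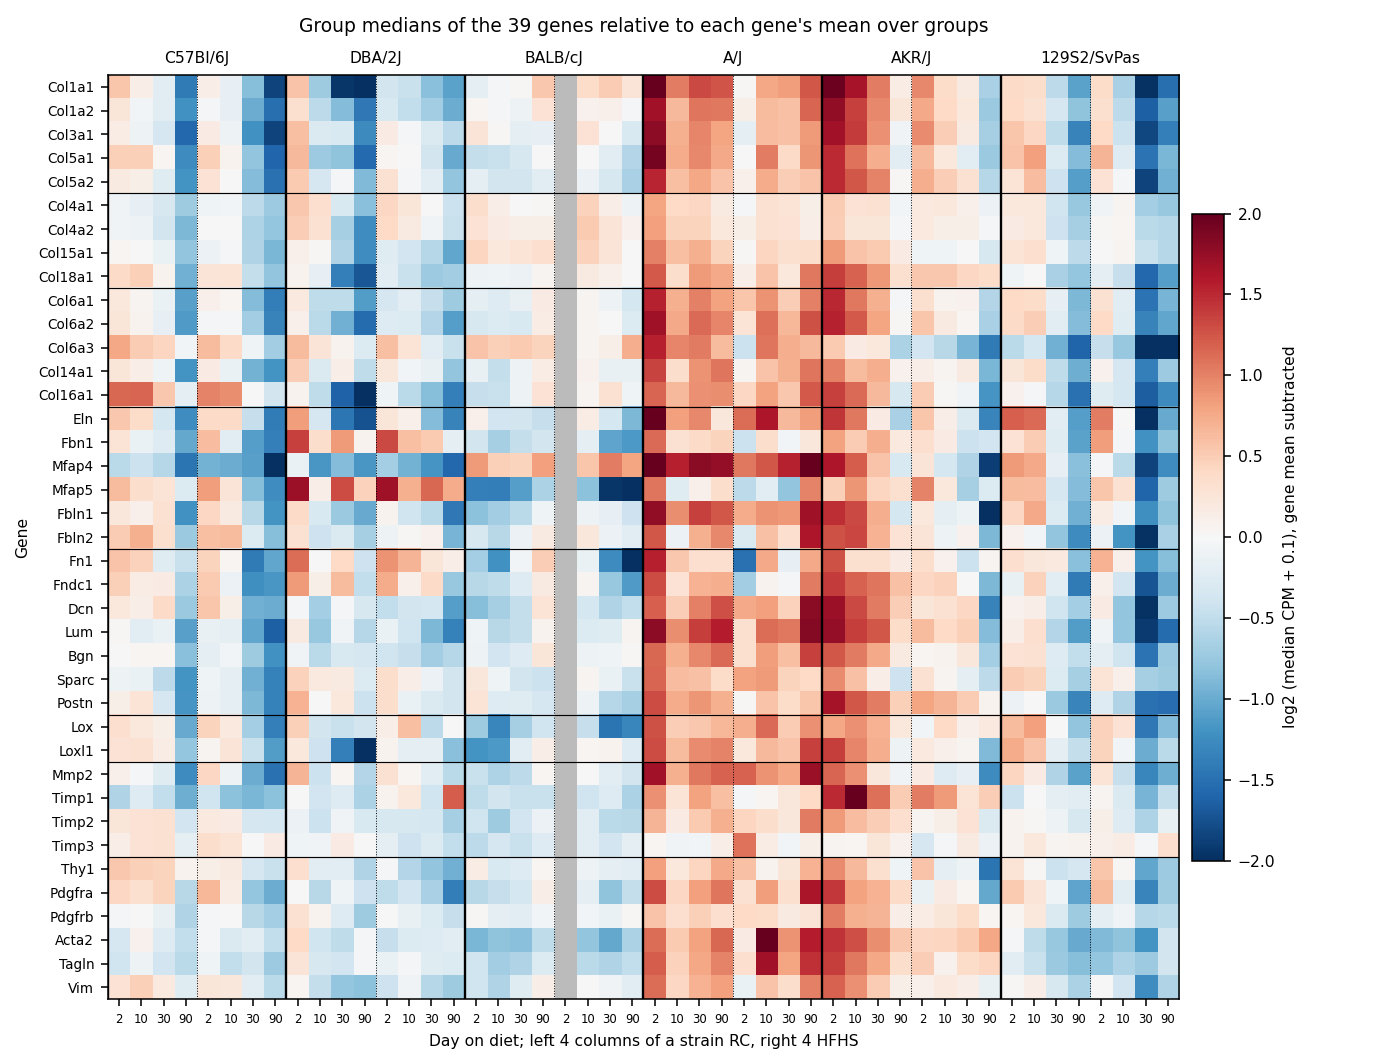
Group medians of the 39 genes (rows, ordered by role) in 48 groups (columns, by strain, diet and day), as log2 of the median CPM plus 0.1 with the gene's mean over groups taken out; grey marks the group with no library within the GC bound. A/J columns, and AKR/J columns other than day 90 on HFHS, are mostly above the mean, and the later days of 129S2/SvPas and C57Bl/6J mostly below it.

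At day 2, HFHS islets held less RNA of most matrix genes. As the mean over 5 strains, 27 of the 39 members were lower on HFHS and 1 was higher, with a median log2 fold change of -0.51, while 7.62 percent of all genes tested were lower and 10.1 percent were higher. All 5 fibrillar collagen genes fell, led by Col1a1 (-0.88, SE 0.171, adjusted p = 4.59e-05) and Col1a2 (-0.72), the chains of type I collagen. Of the basement membrane collagens Col4a1, Col15a1 and Col18a1 fell, and Col15a1, a collagen of capillary basement membranes, had the smallest p (-0.51, SE 0.059, adjusted p = 5.01e-13). All 5 other collagen genes fell, 4 of 6 elastic fibre genes (Mfap4, -0.81), 5 of 7 glycoproteins and proteoglycans (Lum, -0.65), and Acta2, Tagln, Vim and Pdgfrb among the cell genes (Acta2, smooth muscle actin, -0.71). Timp3 rose by 0.19 (SE 0.051, adjusted p = 0.00496).

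The day 2 count rests in large part on A/J. In A/J 29 members were lower and 1 was higher, where 11.3 percent of all genes were lower and 15.2 percent higher, and 23 of the 29 fell by a log2 of 1 or more. Col3a1 was at 501.1, 575.6 and 780.6 CPM in the 3 RC mice and at 136.3, 144.7, 150.3 and 173.4 CPM in the 4 HFHS mice. The ranges did not overlap, and the libraries beyond the GC bound lay on the same sides (426.9 and 427.1 on RC, 171.1 and 199.5 on HFHS). The log2 difference was -2.18 (SE 0.406, adjusted p = 5.12e-06). Col1a1 was at 208.8, 227.2 and 364.3 CPM on RC and at 33.8, 44.8, 64.7 and 64.8 CPM on HFHS, again without overlap within the bound (-2.32, SE 0.476). Beyond it, 1 RC library had 32.5 CPM of Col1a1. Fn1, fibronectin, had 70.1, 71.4 and 81.2 CPM on RC and 5.81, 8.29, 8.81 and 50.4 CPM on HFHS, also without overlap (-2.25, SE 0.721). Timp3 was the exception, with 129.2, 144.4 and 155.4 CPM on RC and 255.3, 286.1, 311.1 and 344.1 CPM on HFHS (0.78, SE 0.143, adjusted p = 3.26e-06). Of Timp3 the ranges did not overlap within the bound, and beyond it an RC library had 231.8 CPM. Among all groups within the bound, the highest median of Col3a1, Col1a1 and Fn1 was that of these A/J RC mice. For Timp3 it was that of the A/J HFHS mice. The lowest medians of these genes were in other strains, such as 46.1 CPM of Col3a1 in C57Bl/6J on HFHS at day 90.

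Markers of other cells moved with the A/J difference. The 7 adipocyte genes summed to 0.457, 0.454 and 0.715 CPM in the RC libraries and to 20.7, 47.2, 16.1 and 30.4 CPM in the HFHS libraries within the bound. All 6 adipocyte genes tested were higher, and Adipoq, the defining marker, was at 0, 0 and 0.0286 CPM on RC and at 0.036, 1.28, 2.84 and 5.62 CPM on HFHS. In the HFHS libraries beyond the bound the adipocyte sum was 0.253 and 0.551 CPM, and Col3a1 was low there too (171.1 and 199.5 CPM). The 12 macrophage genes summed to 394 to 513 CPM on RC and to 179 to 353 CPM on HFHS (8 of 12 lower), and 7 of 10 beta cell genes were lower, with sums of 279760 to 297860 and 125890 to 243420 CPM. Endothelial genes summed to 913 to 1051 CPM on RC and 926 to 1004 CPM on HFHS, and 2 of 12 were lower. Other fibroblast genes summed to 397 to 581 CPM on RC and 295 to 363 CPM on HFHS (9 of 12 lower), and pericyte and smooth muscle genes to 251 to 284 and 196 to 246 CPM (4 of 12 lower), both without overlap within the bound. Beyond the bound, the pericyte and smooth muscle sums were 208 and 256 CPM on RC and 265 and 280 CPM on HFHS, so HFHS was higher there. Other fibroblast sums beyond it were 627 and 353 CPM on RC and 189 and 284 CPM on HFHS. Of these, 353 CPM lies in the HFHS range within the bound. Mesothelial genes were higher on HFHS in their sum within the bound, 98.9 to 116.1 CPM on RC and 134.3 to 209.9 CPM on HFHS, although 3 of 6 were called lower and 0 higher. The HFHS mouse 4HF3 stood apart, with 48533 CPM of Ins2, an insulin gene, against 103910 to 137020 CPM in the other 3 HFHS mice and 161370 to 169530 CPM on RC, and it held the 50.4 CPM of Fn1. Without 4HF3, an alternative chosen after the data were seen, 30 members were lower in A/J and 1 was higher, and Col3a1 was at -2.18, Col1a1 at -2.30 and Fn1 at -3.34. The part of these cells in the matrix result was not tested.

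AKR/J was the other strain with many members lower at day 2: 14 fell (background 12.2 percent; 5 with all 338 libraries and 9 with no filter on low counts), among them Pdgfra (-1.19), Dcn (-1.10) and Bgn (-0.97, biglycan). Col15a1 was at 103.4, 116.7, 116.7, 121.3 and 155.3 CPM in the 5 RC mice and at 48 to 104.8 CPM on HFHS (median 60.5, n = 6), where 1 HFHS mouse reached the RC range (-0.65, SE 0.128, adjusted p = 1.76e-05). Pdgfrb was at 49.5, 56.0, 62.5, 72.0 and 83.3 CPM on RC and at 26 to 55.3 CPM on HFHS (median 34, n = 6), again with 1 HFHS mouse inside the RC range (-0.62, SE 0.132). In 129S2/SvPas 1 member fell, Col15a1 (-0.45, SE 0.12, adjusted p = 0.0187), where the background was 0.426 percent. No member was called in 129S2/SvPas with DESeq2 size factors, with no filter on low counts or without the GC curve. In C57Bl/6J and DBA/2J edgeR called 0 of the 39, with backgrounds of 0.504 and 0.168 percent lower. Under an unadjusted p of 0.05 lay 1 and 4 members, and 1685 and 1358 of the 16663 genes tested. The diet effect differed between strains for 18 of the 39 members, where 28.3 percent of all genes passed this test, with Timp3 (adjusted p = 3.84e-05), Col15a1 (0.000596) and Col3a1 (0.00112) among them. Without the A/J mouse 4RC2 on RC it was 8 members (20.5 percent), where 21.3 percent of all genes passed. With A/J left out of the mean, an alternative chosen after the data were seen, 13 members were lower at day 2, 0 were higher and the median was -0.29. In that mean 918 of the 16663 genes were lower and 1555 higher. With any other strain left out, 23 to 32 members were lower, where 1141 to 1252 genes were.

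**Figure D2:**
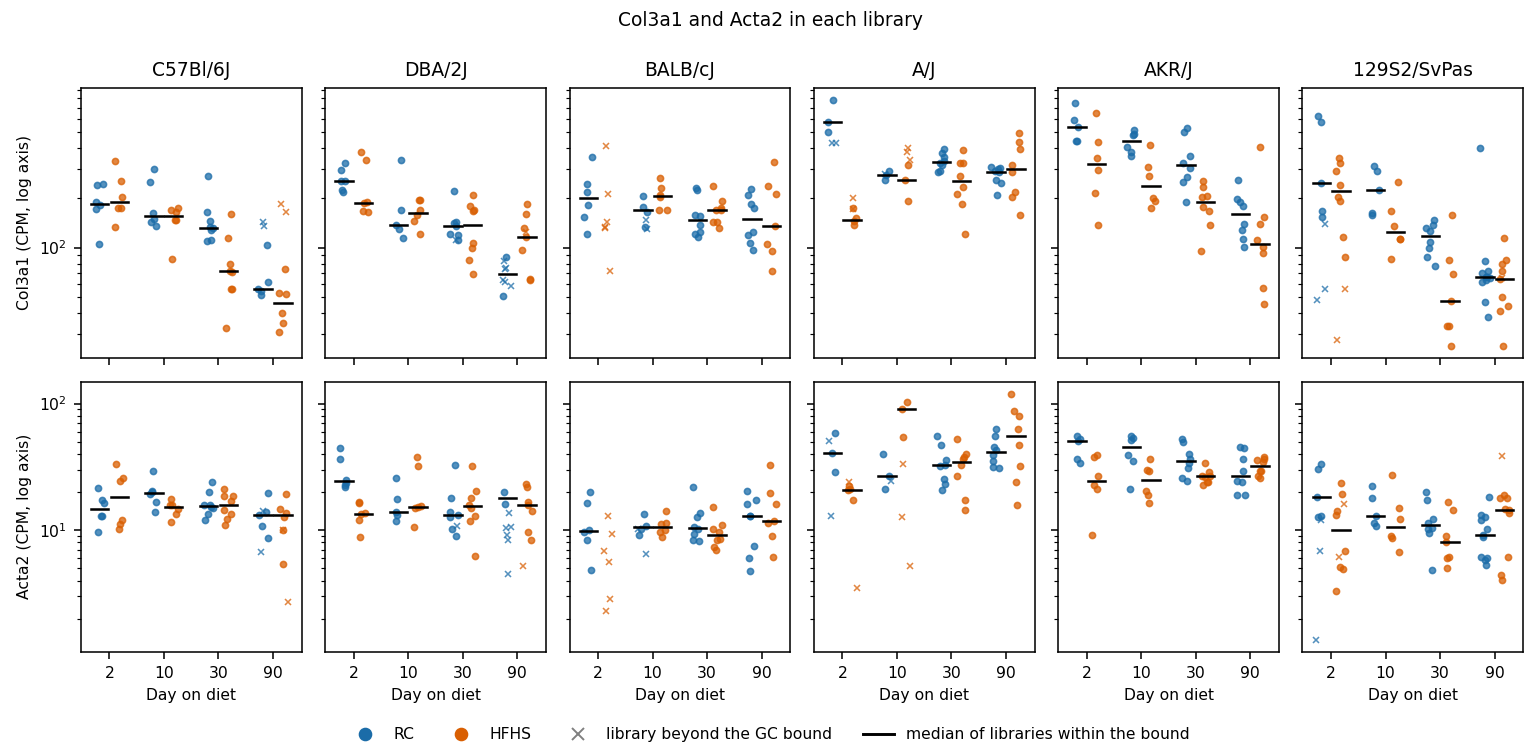
Col3a1 (upper row) and Acta2 (lower row) in each library, in CPM on a log axis, by day on diet and strain, RC in blue and HFHS in orange; crosses are libraries beyond the GC bound and bars are medians of those within it. In A/J at day 2 the HFHS libraries of Col3a1 lie between 136.3 and 173.4 CPM within the bound, all below the RC libraries.

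At day 10 the mean over 6 strains showed little: 2 members were lower on HFHS, Mfap4 (-0.65, SE 0.145, adjusted p = 0.00136) and Col15a1 (-0.18, SE 0.056), with backgrounds of 2.45 percent lower and 2.04 percent higher. The count was 0 without AKR/J in the mean and 6 without A/J, where 316 and 369 of the 16663 genes were lower. AKR/J had the most calls, with 15 members lower against 4.45 percent of all genes. It had 2 with all 338 libraries, 5 with a GC bound of 0.3 and 10 with no filter on low counts. In AKR/J, Mfap4 ran from 4.61 to 12 CPM on RC (median 9.42, n = 6) and from 2.13 to 3.84 CPM on HFHS (median 3.13, n = 6), and the ranges did not overlap (-1.45, SE 0.316, adjusted p = 0.00153). Lum, Col16a1, Eln, Thy1 and Tagln were also among the 15. In 129S2/SvPas Mfap4 was the 1 member called (-1.29, background 0.48 percent). By direction the 2 strains were alike, with 37 members below 0 in each and medians of -0.72 in AKR/J and -0.515 in 129S2/SvPas. In C57Bl/6J, DBA/2J, BALB/cJ and A/J edgeR called 0 members, where 0.036, 0.024, 5.41 and 0.03 percent of all genes were called lower. Under an unadjusted p of 0.05 lay 2, 3, 3 and 2 members, and 715, 1319, 3668 and 1063 of the 16663 genes tested. In BALB/cJ 2 of the 39 members lay below 0, and the median was 0.25. In A/J, Acta2 went the other way without passing: 21.2, 26.6 and 39.9 CPM on RC and 54, 90.3 and 103.7 CPM on HFHS, without overlap (1.55, SE 0.448, adjusted p = 0.17). The diet effect of Acta2 and of Tagln, smooth muscle actin and its partner transgelin, differed between strains at day 10 (adjusted p = 0.0176 and 0.00557), as did that of Mfap4 (0.0334), the 3 called members of this test (background 7.23 percent).

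At day 30 the lower level on HFHS was spread over most members and over several strains. Of the 39, 32 were lower and 0 were higher over 6 strains, with a median of -0.41, while 8.28 percent of all genes were lower and the median of all genes was 0.01. All 14 collagen genes fell. Col6a3, a chain of the microfibrillar type VI collagen, had the smallest p (-0.60, SE 0.082, adjusted p = 9.68e-10), followed by Col15a1 (-0.31, SE 0.044, adjusted p = 3.95e-09). The largest changes were those of Mfap5 (-0.85), Fn1 (-0.80), Fndc1 (-0.75), Pdgfra (-0.68) and Fbn1 (-0.63), the last encoding fibrillin, the core of elastic microfibrils. All 7 glycoproteins and proteoglycans fell, and 5 of 6 elastic fibre genes. The changes of Col4a1 (-0.11) and Col4a2 (-0.12) were small and turned to 0.00 and 0.08 without the GC curve.

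The 7 members not called at day 30 were Fbln1, Lox, Timp1, Timp3, Acta2, Tagln and Vim. Among genes of the cells themselves, Pdgfra (-0.68), Thy1 (-0.49), a fibroblast surface protein, and Pdgfrb (-0.19), the receptor of pericytes and stellate cells, were therefore lower at day 30, and the contractile genes Acta2 and Tagln were both at -0.12 (adjusted p = 0.489 and 0.413). At day 2 the contractile genes had fallen and Pdgfra (-0.44, adjusted p = 0.106) and Thy1 (-0.23) had not passed. In all, 23 members were lower at both days, 9 at day 30 alone and 4 at day 2 alone, where 2.14, 6.14 and 5.47 percent of all genes were, and whether the effects of these days differ was not tested.

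By strain at day 30, 129S2/SvPas had 13 members lower (background 1.36 percent), AKR/J 12 (1.73 percent), C57Bl/6J 7 (1.33 percent) and BALB/cJ 1 (2.08 percent). With all 338 libraries these counts were 3, 1, 2 and 1, without the GC curve 7, 10, 2 and 1, and with no filter on low counts 10, 8, 3 and 1. In 129S2/SvPas, Col3a1 ran from 77.4 to 146.4 CPM on RC (median 117.8, n = 8) and from 25.5 to 157.8 CPM on HFHS (median 47.2, n = 7), so the ranges overlapped. Mfap4 led there with -1.47 (SE 0.33), at 1.26 to 6.05 CPM on RC (median 3.61) and 0.392 to 4.99 CPM on HFHS (median 1.04). In AKR/J, Col6a3 ran from 17.8 to 45.7 CPM on RC (median 26.1, n = 8) and from 7.78 to 17.3 CPM on HFHS (median 11.8, n = 8). The AKR/J ranges of Col6a3 did not overlap (-1.10, SE 0.201, adjusted p = 0.000128). In C57Bl/6J, Dcn went from a median of 71.6 CPM (52.5 to 187.5, n = 8) to 28.2 CPM (17.2 to 76.8, n = 8), with overlap (-1.14, SE 0.349, adjusted p = 0.038). In BALB/cJ the member was Fn1, at 6.05 to 111.6 CPM on RC (median 23.4, n = 8) and 5.45 to 16.5 CPM on HFHS (median 10.1, n = 8; -1.84, SE 0.493).

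In DBA/2J and A/J edgeR called 0 members at day 30, although 5.89 and 0.078 percent of all genes were called lower there. Under an unadjusted p of 0.05 lay 4 and 2 members, and 4847 and 953 of the 16663 genes tested. Without the GC curve DBA/2J had 3 members lower and 6 higher. In DBA/2J, Col3a1 had a median of 135.4 CPM on RC (111.2 to 218.6, n = 7) and 136.5 CPM on HFHS (69.1 to 207.6, n = 8). In these DBA/2J libraries the slope of counts on gene GC content was split by diet. It ran from -0.484 to -0.214 on RC and from 0.0678 to 0.293 on HFHS. CPM levels hold no GC term, so this comparison of Col3a1 cannot part diet from GC content. The calls in DBA/2J at day 30 rest on the GC curve to do so. The diet effect differed between strains for 4 members: Mfap4 (adjusted p = 0.00616), Col6a2 (0.0115), Col1a1 (0.0239) and Col6a3 (0.0431), where 19.2 percent of all genes passed. Leaving any 1 strain out of the mean left 25 to 33 members lower, where 951 to 1449 of the 16663 genes were. The day 30 count of members thus depended less on a strain than the day 2 count did.

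**Figure D3:**
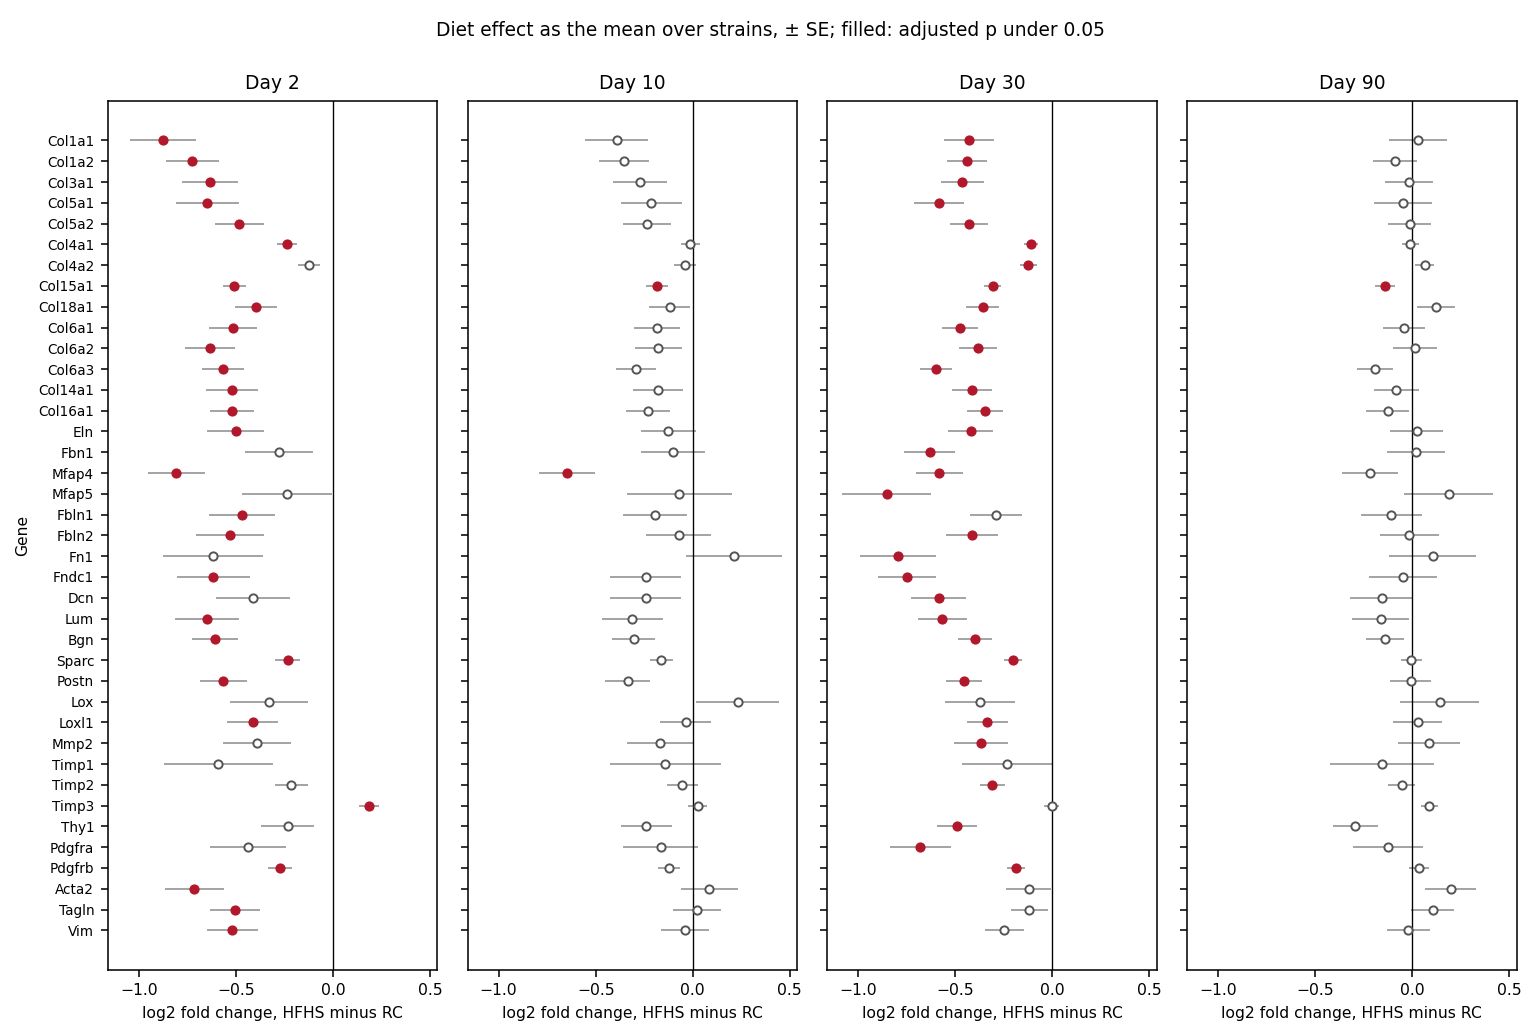
Diet effect (log2 fold change, HFHS minus RC, as the mean over strains, with SE bars) of the 39 genes at each day; filled points have an adjusted p under 0.05. Of the members, 27 are lower at day 2, 2 at day 10, 32 at day 30 and 1 at day 90.

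At day 90, as the mean over strains, 1 of the 39 members was called: Col15a1 was lower (-0.14, SE 0.05, adjusted p = 0.0325, background 7.69 percent), and the median of the members was -0.02, while 10.4 percent of all genes were higher. Without C57Bl/6J, AKR/J or 129S2/SvPas in the mean, 0 were called, and without mouse 3HF46 the count was 2, with Thy1 added. Col15a1 thus passed at each of the 4 days. In AKR/J at day 90 its range was 63.7 to 85.2 CPM on RC (median 72.4, n = 8) and 45.4 to 66.8 CPM on HFHS (median 51.3, n = 8), with a small overlap (-0.30, SE 0.106). AKR/J had 6 members lower and 1 higher (backgrounds 14.8 and 16.8 percent). Thy1 was among the lower ones, with 6.86 to 14.8 CPM on RC (median 10.9) and 3.57 to 9.25 CPM on HFHS (median 4.11), overlapping in range (-0.92, SE 0.259, adjusted p = 0.00284). The higher one was Col4a2 (0.26).

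The remaining day 90 calls rest on few mice. In 129S2/SvPas Timp1, a secreted protease inhibitor, was lower (-3.20, SE 0.421, background 5.56 percent), but 1 of the 11 RC mice had 49.6 CPM, against 0.35 to 2.85 CPM in the other 10 and 0.213 to 0.981 CPM on HFHS (n = 9). The same mouse, 6RC89, whose sample description holds only the word delete, also had 401.9 CPM of Col3a1 and 130.7 CPM of Col1a1. Without it the Timp1 difference was -0.60 (adjusted p = 0.371). In BALB/cJ Thy1 was higher (0.70, SE 0.25, adjusted p = 0.038, background 9.76 percent). There 3 of 7 HFHS mice had 15.6, 42.3 and 61.2 CPM of Thy1, with 44.6, 50.2 and 110.95 CPM of Fn1, while the other 4 had 6.58 to 9.91 CPM of Thy1 and 2.83 to 5.90 CPM of Fn1. Without the highest of these, mouse 3HF46, the BALB/cJ difference of Thy1 was 0.26 (adjusted p = 0.614). In AKR/J 1 HFHS mouse, 5HF41, stood apart with 405.1 CPM of Col3a1, where the other 7 had 45.6 to 152.9 CPM. The diet effect differed between strains for Timp1 (adjusted p = 2.73e-08) and Thy1 (0.00179), 2 of 39 members where 47.9 percent of all genes passed. Without 6RC89 the Timp1 value was 0.00406, without 3HF46 the Thy1 value was 0.0535, and without 5HF41 the count was 11 members.

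The difference between days was tested as well. Of the 39, 0 members passed for the diet effect at day 30 minus that at day 10 (backgrounds 0.498 percent lower and 2.56 percent higher). Under an unadjusted p of 0.05 lay 8 members and 3450 of the 16663 genes. For day 90 minus day 30, all 39 members lay above 0 and 26 were at an unadjusted p under 0.05. Over the 16663 genes, 8561 lay below 0 and 2475 were at an unadjusted p under 0.05. By edgeR 1 member passed, Col18a1 (0.48, SE 0.129, adjusted p = 0.0324, backgrounds 0.456 percent higher and 0.906 percent lower). The count hung on single mice: 3 members passed without 6RC89, 2 without 1RC138 of C57Bl/6J, 8 without 2RC123 and 0 without 2RC122, the only DBA/2J mice on RC at day 90 within the bound, and 13 without the 129S2/SvPas mice numbered 75 or higher. For the other 38 members the difference between the days did not pass over the 304 libraries, which does not show that the days are alike.

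On RC, the members fell with time in most strains. From day 2 to day 90, as the mean over 6 strains, 37 of the 39 were lower and 0 higher, with a median of -0.93, where 17.3 percent of all genes were lower and 17.3 percent higher. Time here joins the age of the mice with days on the diet. Eln, elastin, changed most (-1.84, SE 0.155, adjusted p = 6.69e-24), then Col3a1 (-1.45, SE 0.146), Col1a1 (-1.42) and Col5a1 (-1.34, a minor fibrillar chain that sets fibril width). Sparc (-0.96, SE 0.06, adjusted p = 1.1e-37) and the basement membrane genes Col4a1 (-0.67) and Col4a2 (-0.70) fell less. Timp1 (-0.08) and Timp3 (0.00) were the members not called. Leaving any 1 strain out of the mean left 32 to 37 members lower, where 2327 to 3009 of the 16663 genes were.

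129S2/SvPas had the most members lower on RC, 36 (background 12 percent), and its Eln was at 17.9, 21.6, 32.9, 74.0 and 85.7 CPM at day 2 and ran from 3.03 to 8.91 CPM at day 90 (median 6.55, n = 11), without overlap. Timp1 was called higher there (2.68), which rests on mouse 6RC89 (0.08 without it). AKR/J had 28 members lower (15.2 percent), with Col3a1 at 439.2, 443.7, 534.5, 587.7 and 750.0 CPM at day 2 and 100.5 to 258.2 CPM at day 90 (median 159.6, n = 8), again without overlap. C57Bl/6J had 18 lower (2.12 percent), DBA/2J 18 (14.7 percent, with 2 mice at day 90) and A/J 13 (6.35 percent). In C57Bl/6J, Col1a1 went from a median of 79.04 CPM (31.3 to 86, n = 6) to 16.7, 17.5, 20.2, 20.2 and 34.6 CPM, with 1 mouse of day 90 above the lowest of day 2. BALB/cJ was the exception. There 4 members were lower (9.09 percent), Eln, Col4a1, Col4a2 and Sparc, and 2 were higher (15.2 percent), Dcn (1.21, SE 0.385) and Timp3 (0.42), and the median was 0.15. BALB/cJ Col3a1 had a median of 198.8 CPM at day 2 (121.1 to 355.8, n = 6) and 149.3 CPM at day 90 (96.9 to 226.9, n = 8), with wide overlap. Whether strains differ in this change was not tested.

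On HFHS, where BALB/cJ has no day 2 value, 32 members fell from day 2 to day 90 and 1, Acta2, rose (0.35, SE 0.139), with a median of -0.66 and backgrounds of 23.0 and 19.4 percent. No member was higher without A/J, DBA/2J or AKR/J in the mean, and 2 were without C57Bl/6J. Of the members, 31 were lower with time on both diets, where 11.9 percent of all genes were. C57Bl/6J had 33 lower (7.15 percent), 129S2/SvPas 34 (17.4 percent), DBA/2J 25 (22.5 percent) and AKR/J 19 (17.9 percent). A/J went the other way, with 22 higher (14.7 percent) and 1 lower, Timp3 (17.9 percent), and a median of 0.83. Its Acta2 was at 17.4, 20.8, 21.0 and 22.4 CPM at day 2 and at 15.7 to 119.1 CPM at day 90 (median 55.1, n = 8; 1.69, SE 0.359). Its Mfap5 rose by 1.82 and its Fndc1 by 1.79. The A/J change starts from the day 2 HFHS libraries described above, which were low against the A/J RC mice of that day. Without A/J in the mean, 35 members were lower on HFHS, where 3504 of the 16663 genes were, and the members' median was -1.09.

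**Figure D4:**
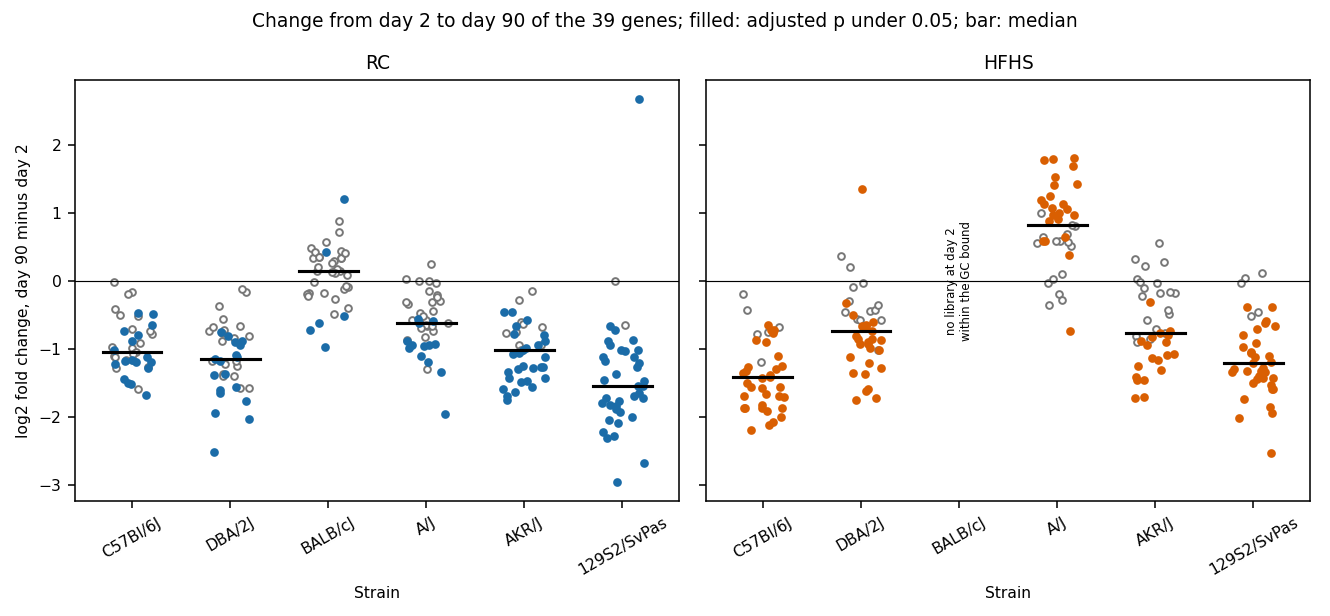
Change from day 2 to day 90 (log2 fold change) of the 39 genes by strain, on RC (left) and HFHS (right); filled points have an adjusted p under 0.05 and bars are medians. The median is near 0 for BALB/cJ on RC and above 0 for A/J on HFHS, and below 0 for all other strains shown.

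On RC over all 4 days, A/J and AKR/J held the most matrix RNA. Each strain was compared with the average of the remaining 5. In A/J 35 members were higher and 0 lower (30.4 and 27.8 percent of all genes), with a median of 0.82, and 9 were higher by a log2 of 1 or more, as were 2.24 percent of all genes. These were Mfap4 (1.89, SE 0.113, adjusted p = 6.01e-41), Lum (1.56), Fbln1, Col1a1 (1.24), Mmp2 (1.12), Acta2, Col6a2, Eln and Col1a2. Mmp2 is gelatinase A and Lum is lumican, a proteoglycan of collagen fibrils. At day 90, Mfap4 ran from 11.5 to 18.2 CPM in A/J (median 13.9, n = 8). The next group, BALB/cJ, ran from 3.81 to 11.4 CPM (median 7.21, n = 8), so the gap between these strains was narrow, and the highest mouse of the other 4 strains had 4.07 CPM within the bound.

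In AKR/J 36 members were higher and 1 lower (31.6 and 26.5 percent), with a median of 0.60, and 5 were higher by a log2 of 1 or more (4.08 percent): Timp1 (1.40), Acta2 (1.10), Lum (1.06), Postn (1.06, periostin) and Dcn (1.03). The lower one was Col6a3 (-0.30). All 5 fibrillar collagen genes were higher in both strains, Col1a1 by 1.24 in A/J and 0.94 in AKR/J, whereas Col6a3 was higher by 0.90 in A/J.

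The other strains were lower, each with its own exceptions. C57Bl/6J had 24 members lower and 3 higher (29.7 and 33.4 percent), with Mfap4 lowest (-1.22) and Col16a1 highest (0.63). DBA/2J had 24 lower and 2 higher (30.6 and 24.0 percent), with Col1a1 at -1.35 and Mfap4 at -1.28 while the microfibril genes Mfap5 (0.92) and Fbn1 (0.71) were higher. BALB/cJ had 28 lower and 5 higher (28.5 and 29.3 percent), with Mfap5 at -1.68 and Lox at -1.13, and with Mfap4 (0.48), Col4a2 (0.36) and Col6a3 (0.33) higher. 129S2/SvPas had 17 lower and 2 higher (25.5 and 30.9 percent), with Col6a3 at -1.15 and Lox at 0.52. These contrasts share strains, so they are not independent of each other. Strain sequence differences that lower the mapping of a gene were not tested.

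**Figure D5:**
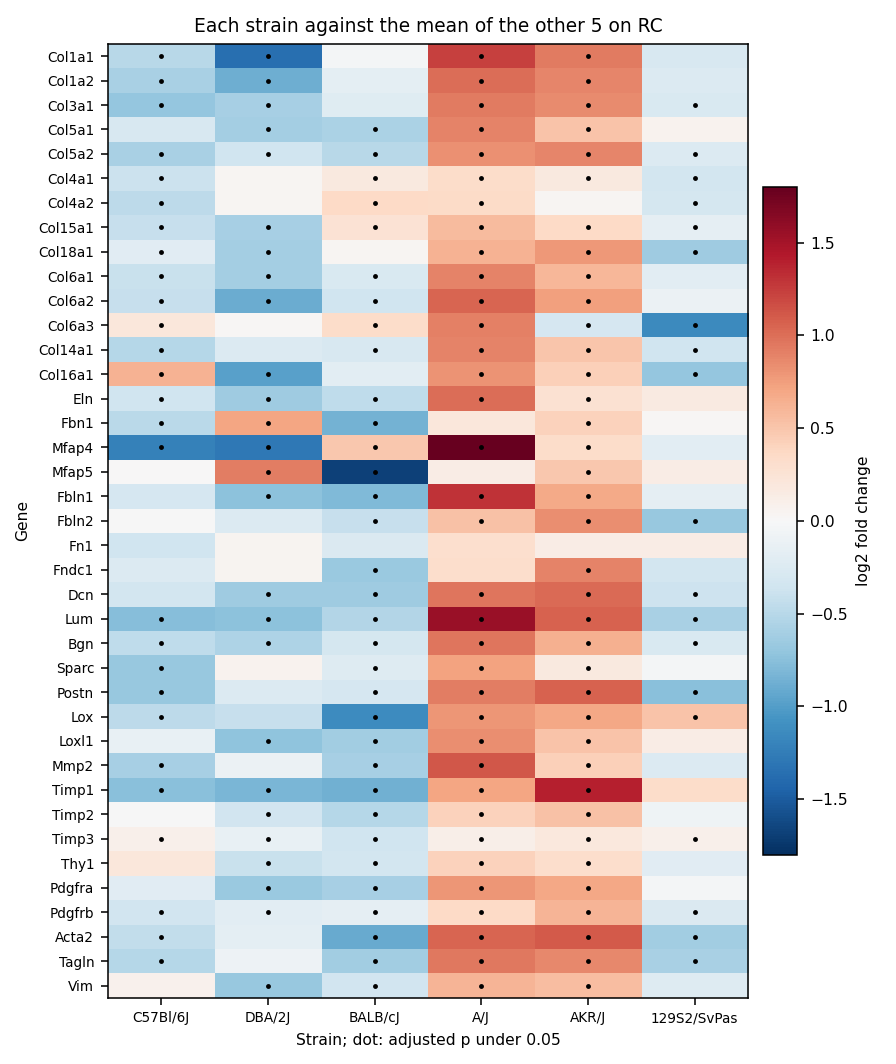
Strain differences on RC (log2 fold change, the strain named minus the average of the remaining 5) for the 39 genes; dots mark an adjusted p under 0.05. A/J (35 members) and AKR/J (36 members) are mostly higher, and Col6a3, Mfap4 and Mfap5 differ in direction between the other strains.

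Between mice of the same group, some members varied together more closely than others. After the group mean was taken out, 12 relations were computed over 304 libraries. Col3a1 went with Col1a1 (Pearson's r 0.953, Spearman's rho 0.946) and with Pdgfra (r 0.861, rho 0.848), and within each strain these were 0.93 to 0.966 and 0.823 to 0.886. It went less with Timp1 (0.585, rho 0.486), Pdgfrb (0.579, rho 0.522), Acta2 (0.539, rho 0.542) and Tagln (0.502, rho 0.539), and least with Col4a1 (0.33, rho 0.347), which was -0.00373 within DBA/2J. Acta2 and Tagln varied together at 0.931 (rho 0.925), and Pdgfrb went with the endothelial marker Pecam1 at 0.682 (rho 0.674). Permutation p was 1e-05 for each of these, the smallest that 100000 permutations can give (Benjamini-Hochberg adjusted 1.09e-05), and leaving out the 2 libraries farthest from the median of Col3a1, Acta2 or Pdgfrb left r at 0.365 to 0.949. Col3a1 also went with Pecam1 (0.576, rho 0.592) and the macrophage marker Cd68 (0.555, rho 0.508). The relation with the acinar enzyme Prss1 is not read here, since Prss1 was at 0 in 43.1 percent of the 304 libraries. Of the relations computed, Col3a1 with Col1a1 and Acta2 with Tagln were the closest, and most pairs of members were not computed. All libraries share their sequencing depth and composition across these genes, and prep days are not given, so no within-day value can be had.

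Genes that act on the matrix around these members were counted too, in the day 2 diet, day 30 diet and RC time comparisons, where 7.62, 8.28 and 17.3 percent of all genes were lower and 10.1, 13.7 and 17.3 percent higher. Of 26 collagen processing enzymes, 9 were lower and 2 higher on HFHS at day 2, 5 and 2 at day 30, and 12 and 3 with time on RC. Serpinh1, the collagen chaperone HSP47, was at -0.52 (SE 0.087) at day 2. Adamts2, which cuts the procollagen ends, was at -0.81, -0.44 and -1.03 in the 3 comparisons, and Pcolce, its enhancer in procollagen cutting, at -0.63 and -0.39 at days 2 and 30. Of 24 genes of the TGF-beta pathway, the main inducer of stellate cell matrix, 9, 7 and 7 were lower and 0, 0 and 1 higher. They were led by Eng (-0.30) at day 2, Ltbp1 (-0.36), which stores the latent ligand in the matrix, at day 30, and the ligand Tgfb2 (-0.67) with time.

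Of 19 other basement membrane genes tested (20 listed), 13, 11 and 15 were lower and 0, 0 and 1 higher, with the laminin gene Lama2 at -0.60 (SE 0.092) at day 30 and Lamb1 at -0.55 with time. Of 20 matrix receptors, 6, 4 and 7 were lower and 0, 0 and 2 higher, with the collagen receptors Ddr2 (-0.36) and Itga11 (-0.58) at day 30. Of 17 matrix proteases, 8, 5 and 9 were lower and 0, 0 and 1 higher, with Mmp9 at -1.10 and -0.88 at days 2 and 30. Of 4 platelet-derived growth factor ligands, the mitogens of stellate cells, 3 were lower at day 2, 0 were lower and Pdgfa was higher (0.18) at day 30, and 2 were lower with time.

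Markers of the other cells of the preparation moved in part with the members, against the same backgrounds. Of 12 pericyte and smooth muscle genes, 9 were lower at day 2, 1 at day 30 and 7 with time on RC. Their sum at day 2 ran from 115.2 to 327.7 CPM on HFHS (median 200.3, n = 30). On RC it ran from 133.5 to 470.6 CPM (median 239.5, n = 31). These sets differ in strains, with BALB/cJ at 0 libraries on HFHS and 6 on RC, and 129S2/SvPas at 8 and 5. The 2 medians therefore mix strain with diet. Rgs5, the defining pericyte gene, was at -0.29 at day 2 and -0.01 at day 30. Of 12 other fibroblast genes, 5, 7 and 8 were lower, and 10 were higher in A/J and 11 in AKR/J (30.4 and 31.6 percent of all genes). At day 30 this list summed to 158.3 to 596.1 CPM on HFHS (median 254.6) and 164.7 to 999.96 CPM on RC (median 308.04).

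Of 12 endothelial genes, 4 were lower at day 2, 4 higher at day 30 and 4 lower with time. Of 12 macrophage genes, 9, 3 and 0 were lower, and 12 were higher in A/J (background 30.4 percent), where their sum on RC was 205.2 to 716.2 CPM (median 426.6), against 106.4 to 342.3 CPM (median 144.5) in DBA/2J. Of 6 mesothelial genes, 4 were lower at day 30, and their sum was 2.82 to 119.7 CPM on HFHS (median 26.7) and 1.6 to 138.02 CPM on RC (median 31.02). Of 10 Schwann cell genes, 2, 5 and 9 were lower. Of 19 acinar genes, 0 were called for diet at day 2 or 30, with 2 higher with time on RC. The part of these cells in the results on the members was not tested.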

How the data were processed

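RNA of pancreatic islets was sequenced from 338 mice. Per the submitters' processing notes, reads were aligned to mm9 with TopHat 1.3.3 and handled with SAMtools 0.1.16, HTSeq 0.5.3p3 and edgeR. The authors deposited raw read counts of 21382 genes, which were used here, and a table of normalized log2 values of 14826 genes, which served as an alternative. What the authors did to normalize the latter is not given in the sources used here. Groups came from the labels (strain, diet, day).

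Counts were fitted with edgeR 4.0.16 in R 4.3.3 (glmQLFit and glmQLFTest, robust), with 1 mean per group, TMM factors and a spline of GC content (4 knots) per library as an offset. Low counts were removed by filterByExpr, which left 16663 genes and all 39 members. SE was taken as the size of the log2 fold change over the root of its F value. Strain calls by size also needed a log2 difference of 1. CPM levels hold neither TMM nor GC terms. Alternatives used the same model's Wald form, which gave 20 in place of 19 calls among the members in 129S2/SvPas and 17 in place of 18 for the day 2 strain test, limma 3.58.1 (voom) and DESeq2 1.42.0. On simulated data for the day 30 diet effect (16391 genes), 98 of 100 genes changed by a log2 of 0.5 were called, 99 of 100 changed by 1, and 16 of 16191 unchanged ones. Members and gene lists were chosen with earlier results of these data known. Named genes outside the members were the up to 3 with the smallest p per list and comparison, plus a defining marker per cell type. Leaving out a strain, or mouse 4HF3, 3HF46 or 5HF41, and the strain tests at days 2 and 10 were added after the data were seen.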

Additional observations from a re-analysis of the deposited data

Results flagged for a closer look

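In 42 groups of 4 to 10 mice within the GC bound, 84 cases over the 2 genes Col3a1 and Acta2, a mouse lay far from the rest of its group in 8 cases, where chance gives about 1 in 20. For Col3a1 these were 5HF41 of AKR/J on HFHS at day 90 (405.1 CPM), 1HF144 of C57Bl/6J on HFHS at day 10 (85.89 CPM), 1RC123 of C57Bl/6J on RC at day 30 (271.3 CPM), 1RC138 of C57Bl/6J on RC at day 90 (103.34 CPM), 2RC103 of DBA/2J on RC at day 10 (339.0 CPM) and 2RC113 of DBA/2J on RC at day 30 (218.6 CPM). For Acta2 they were 3RC27 of BALB/cJ (21.8 CPM) and again 2RC113 of DBA/2J (32.7 CPM), both on RC at day 30.

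The diet effect differed between strains, by edgeR's test over all strain terms, for 18 members at day 2. The adjusted p-values were 3.84e-05 for Timp3, 0.000596 for Col15a1, 0.000651 for Col4a1, 0.00112 for Col3a1, 0.00463 for Col6a3, 0.00536 for Col5a2 and 0.00796 for Col5a1. They were 0.0102 for Pdgfrb, 0.0106 for Col1a2, 0.0124 for Sparc, 0.0179 for Col6a2, 0.0214 for Fndc1, 0.0237 for Acta2 and 0.0245 for Col1a1. The others were Col14a1 (0.0355), Lum (0.042), Postn (0.0448) and Tagln (0.0484). At day 10 the members were Tagln (0.00557), Acta2 (0.0176) and Mfap4 (0.0334). At day 30 they were Mfap4 (0.00616), Col6a2 (0.0115), Col1a1 (0.0239) and Col6a3 (0.0431), and at day 90 Timp1 (2.73e-08) and Thy1 (0.00179).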

How the results depend on the processing

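All values here are numbers of members, without the share of all genes under the same setting. They show how a count moved and not how it stood against all genes. Most counts under other settings in the Results have the same limit. For diet effects and time the values count members called lower. For strain tests and changes of the diet effect they count all members called. For a strain named alone they count members called with a log2 difference of at least 1 in size against the other strains on RC. Without the GC curve, the diet effect had 0 at day 90, the change of the diet effect 1 (day 30 minus 10) and 0 (day 90 minus 30), the strain tests 7 (day 10), 14 (day 30) and 9 (day 90), and DBA/2J 6 by size. With all libraries and the GC curve, the diet effect had 1 (day 10) and 0 (day 90), and the strain tests 0 (day 10), 0 (day 30) and 6 (day 90). With all libraries and TMM alone, the diet effect had 1 (day 10), 20 (day 30) and 0 (day 90), day 90 minus 30 had 0, the strain tests 33 (day 2), 2 (day 30) and 16 (day 90), time on HFHS 20, and DBA/2J 9. With a GC bound of 0.3, the diet effect had 1 (day 10) and 2 (day 90), day 90 minus 30 had 0, the strain test at day 30 had 1, A/J 4 and AKR/J 3. With the authors' normalized table and limma, the changes of the diet effect had 4 and 0, the strain tests 5 (day 10), 17 (day 30) and 10 (day 90), A/J 17 and DBA/2J 7.

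With voom and quality weights, day 10 had 8, day 30 minus 10 had 5, and the strain tests 32, 30, 15 and 8 at days 2, 10, 30 and 90. With the samples of a day alone, the diet effect had 8 (day 10) and 0 (day 90), and the day 10 strain test 13. With the acinar list as covariate, day 90 minus 30 had 2 and the strain tests 5 (day 10) and 4 (day 90). DESeq2 gave 1 (day 30 minus 10) and 3 (day 90 minus 30). Without 129S2/SvPas mice numbered 75 or higher, the diet effect had 0 at day 90, its changes 1 and 13, the day 90 strain test 8, and 129S2/SvPas 2. Day 30 minus 10 had 1 without each of the mice 6RC89, 3HF46, 4HF3 and 5HF41. Day 90 minus 30 had 3 without 6RC89. At day 90 the diet effect had 2 without 3HF46, and the strain test 1 without 3HF46 and 11 without 5HF41.

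With 1 strain left out of the mean, day 2 had 13 without A/J. Day 10 had 1 without DBA/2J, 5 without BALB/cJ, 6 without A/J, 0 without AKR/J and 1 without 129S2/SvPas. Day 90 had 0 without C57Bl/6J, AKR/J or 129S2/SvPas. Leaving out in turn each library of the 11 groups with 5 or fewer within the bound (44 fits, none of the larger groups) gave 25 to 30 (day 2), 1 to 2 (day 10), 32 to 32 (day 30) and 0 to 2 (day 90) for diet, 0 to 1 and 0 to 8 for its changes, 8 to 19, 2 to 4, 4 to 4 and 2 to 3 for the strain tests, 35 to 37 (RC) and 31 to 33 (HFHS) for time, and 7 to 9 (A/J), 5 to 5 (AKR/J), 2 to 4 (DBA/2J), 1 to 1 (C57Bl/6J), 2 to 2 (BALB/cJ) and 1 to 1 (129S2/SvPas) for strains.

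By strain, members lower with all libraries and the GC curve were 5, 2, 1 and 3 in AKR/J for diet at days 2, 10, 30 and 90, 3 in 129S2/SvPas and 2 in C57Bl/6J for diet at day 30, and 8 in C57Bl/6J and 34 in DBA/2J for time on RC. Voom gave 29 and 28 in AKR/J at days 10 and 30, and in DBA/2J 7 at day 30 and 6 for time on RC. AKR/J at day 90 had 17 without 5HF41. Without 129S2/SvPas mice numbered 75 or higher, that strain had 22 (RC) and 17 (HFHS) lower with time, and at day 90 0 lower and 5 higher for diet.

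Mouse numbers recur on both diets at the same day in 4 strains. Over 87 same-numbered pairs, the median correlation of deviations from the group mean was 0.00729. Single pairs ran from -0.339 to 0.662, and 26 correlated over 0.1, so some pairs did deviate together. The consensus correlation was 0.0299. With the replicate block in limma voom, the diet effect had 30, 3, 35 and 3 at days 2, 10, 30 and 90, its changes 1 and 1, the strain tests 21, 3, 6 and 1, and time 37 and 33. Log2 changes that reversed were Col4a1 and Col4a2 at day 30 without the GC curve (0.00 and 0.08), with all libraries and TMM alone (0.01 and 0.09) and in the authors' table (0.01 and 0.09), and Bgn (0.02) and Col18a1 (0.25) in time on HFHS with all libraries and TMM alone. Among the calls of named genes, 2409 values kept direction and call under the other settings, 8 reversed and the rest kept direction but lost the call. The cause was not tested for any of these. Timp1 averaged 1.13 CPM and Lox 1.955 CPM, and whether depth limits their calls was not tested.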
